A study of Mus musculus with 32 samples.

Results

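The genes described here are 10 precursors of hippocampal neuropeptides, namely Npy, Sst, Cck, Penk, Pdyn, Tac1, Tac2, Vip, Nts and Crh. They were chosen by symbol, as every array feature annotated to that single gene, which gave 10 of 16755 gene-level features, 1 per gene, and 54 of 188590 exon probe sets, with 2 to 10 per gene. Sicd2-ISCL4 subcongenic mice (ISCL4 mice, n = 8) were compared with their FVB-like littermates (n = 8), to see which hippocampal transcripts differ with the donor segment that a subcongenic line retains from the Sicd2 locus. Sicd2 lies on chromosome 15 and bears on how many hippocampal cells die after seizures. All 16 mice were males aged 6 to 8 weeks, RNA came from the combined hippocampi of each mouse, and no seizure, drug or other treatment is recorded for either group. The labels name neither the donor strain nor the extent of the segment, and do not say what FVB-like covers. None of the 10 genes lies on chromosome 15: by RefSeq they are on chromosomes 2, 3, 4, 6, 9, 10 and 16.

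Neuropeptides are cut from larger precursor proteins inside dense-core granules and act on G protein-coupled receptors. In the hippocampus most of them are made by GABAergic interneurons, and Sst, Npy, Vip and Cck mark interneuron classes. Granule cells of the dentate gyrus, whose axons are the mossy fibres, contain opioid peptides. In rodents, seizures are known to change the transcripts of Npy, Penk, Pdyn, Tac2 and others in hippocampal neurons. Penk, Pdyn and Tac1 are also abundant in the projection neurons of the striatum.

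Each mouse was measured on 1 exon array, and the same 16 arrays were summarised once per gene and once per exon probe set, so the levels are not independent. The median log2 signal of an array was 7.29 to 7.34 for genes and 7.74 to 7.78 for probe sets, and pairs of arrays correlated at 0.973 to 0.995 over genes. Replicates 1 to 4 of each group come from array files of one naming scheme (array set A) and replicates 5 to 8 from files of another (array set B), and what separates the schemes is not stated in the labels. Of 20 markers of hippocampal neurons, 19 were measured, and their mean log2 signal was 8.94 ± 0.04 in ISCL4 mice and 8.96 ± 0.02 in littermates (SD, n = 8 each). Slc17a7 of excitatory neurons, Wfs1 of CA1 and Prox1 of dentate granule cells stood at the 99.4th, 93.5th and 69.5th percentile of feature signal. The dimmest of the list were Tdo2 and Iyd, at the 19.7th and 31.8th percentile. In that list 0 passed with limma, and the smallest p were those of Calb1, at -0.16 between ISCL4 mice and littermates, Cpne4, at -0.10, and Tdo2, at -0.24 on the log2 scale (limma, adjusted p = 0.246, 0.320 and 0.332). Of the precursors, Sst, Penk, Cck and Npy stood above the 95th percentile and Nts was the dimmest, at the 31.5th percentile. Probes differ in brightness, so these percentiles show how far a feature is from the dim end and do not rank transcripts by amount. No detection call was used, and a dim value can be background.

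Several of these genes are textbook targets of cyclic AMP and its transcription factor CREB, a pathway that neuronal activity engages, so the stretches upstream of their starts that hold the CREB-bound element are printed here. The 250 bases upstream of the annotated start were taken from RefSeq for build GRCm38.p6. Windows were available for 8 of 10 genes, and Penk and Crh, which had none, were not searched. The windows were searched on both strands for TGACG, the core of the cyclic AMP response element, written CGTCA where it lies on the other strand. Of these 8 genes, 5 had a match, Sst, Cck, Tac1, Vip and Nts, and 17.8% of all 32851 windows did. The full palindrome TGACGTCA, which contains the core on both strands, was in Sst and in 1.55% of all windows. The bases in capitals are the matches, and each line runs 5′ to 3′ on the strand of the gene.
Sst, chr16:23890855-23890922, minus strand: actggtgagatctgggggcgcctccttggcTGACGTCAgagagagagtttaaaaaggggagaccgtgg
Vip, chr10:5639109-5639173, plus strand: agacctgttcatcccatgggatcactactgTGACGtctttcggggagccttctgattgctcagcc
Cck, chr9:121495707-121495771, minus strand: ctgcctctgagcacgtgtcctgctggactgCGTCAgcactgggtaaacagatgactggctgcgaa
Nts, chr10:102490550-102490614, minus strand: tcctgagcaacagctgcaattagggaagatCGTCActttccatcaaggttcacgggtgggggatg
Tac1, chr6:7554811-7555060, plus strand: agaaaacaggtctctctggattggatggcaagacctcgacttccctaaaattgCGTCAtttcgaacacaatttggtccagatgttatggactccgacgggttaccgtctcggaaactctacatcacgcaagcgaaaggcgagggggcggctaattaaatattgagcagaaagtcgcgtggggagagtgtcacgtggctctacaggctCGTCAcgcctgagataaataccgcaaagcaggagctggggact
The matches began 48 bases upstream of the start in Sst, 79 in Vip, 47 in Cck, 166 in Nts, and 197 and 43 in Tac1. A match is a description of the letters and not evidence of binding.

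No precursor passed the test between the groups. With limma, 0 of 10 had an adjusted p under 0.05 (Benjamini-Hochberg, over the whole table), where 0.292% of all gene-level features did. Without adjustment 2 of 10, Nts and Vip, had p under 0.05, against 14.4% of all features. Of these, Vip was higher in ISCL4 mice, as were 7.51% of all features at that p, and Nts lower, as were 6.89%. The groups overlapped for every precursor, while 0.119% of all features had groups that did not overlap. Values were higher in ISCL4 mice for 6 of 10 precursors, with a median difference of 0.00 on the log2 scale, against 52.1% of all features with a median difference of 0.00. All differences below are ISCL4 minus littermates on the log2 scale, from the fit with array set as a term, with its standard error.

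The 2 precursors with the smallest p encode neurotensin and vasoactive intestinal peptide. Nts encodes neurotensin, a peptide that modulates dopamine and glutamate signalling. The lowest, median and highest log2 signals of Nts were 5.71, 6.06 and 6.25 in ISCL4 mice, against 5.96, 6.35 and 6.63 in littermates. All 8 ISCL4 mice were below the littermate mean for their array set, though the ranges overlapped. The difference was -0.28 (SE 0.093), or 0.823-fold with a 95% interval of 0.718 to 0.944, and did not pass after adjustment over all features (limma, adjusted p = 0.197). The exact permutation test over the 4900 ways to exchange labels inside each array set gave a two-sided p = 0.0131 for this gene alone, where the smallest possible is 0.000408. Over mice of set A the difference was -0.31 and over mice of set B -0.25. It turned to 0.04 when each mouse was given the median over its Nts probe sets in place of the gene-level signal (limma, adjusted p = 0.970). The sign was thus not the same in both summaries. Such a median leans on probe sets of middle brightness. The middle one of the 7 by mean signal, 4608438, was the only one with a higher value in ISCL4 mice, at 0.13, and 6 were lower.

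Vip encodes vasoactive intestinal peptide, made in interneurons that mostly inhibit other interneurons. The lowest, median and highest log2 signals of Vip were 7.88, 8.00 and 8.25 in ISCL4 mice, against 7.60, 7.83 and 8.13 in littermates. Of the 8 ISCL4 mice, 7 were above the littermate mean for their set. The difference of 0.17 (SE 0.072), or 1.12-fold with a 95% interval of 1.01 to 1.25, did not pass either (limma, adjusted p = 0.303; exact permutation p = 0.0433 for this gene alone). The 2 array sets gave 0.23 (set A) and 0.11 (set B).

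**Figure D1:**
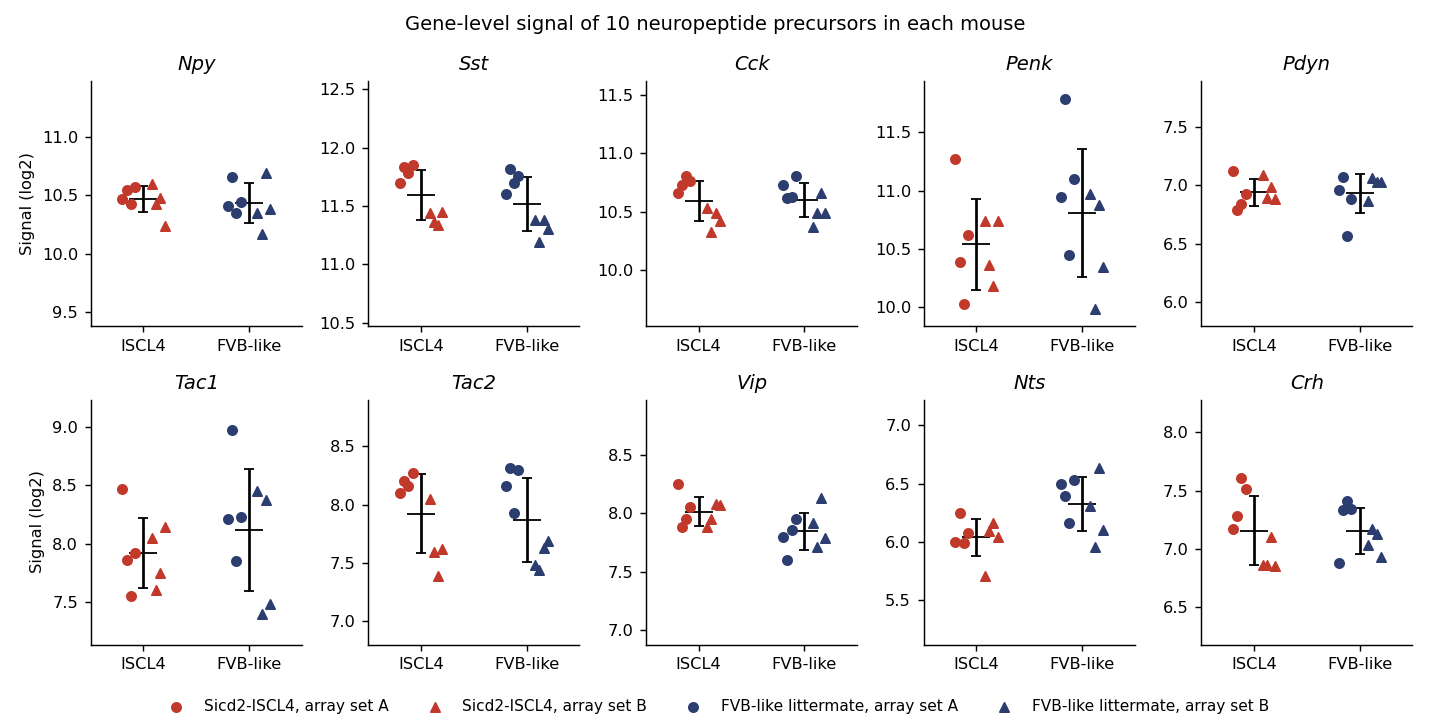
Gene-level log2 signal of the 10 precursors (y axis, with the same span in each panel) in 8 Sicd2-ISCL4 mice (red, left) and 8 FVB-like littermates (blue, right); circles are array set A, triangles array set B, and the black line and bar are the mean and SD over 8 mice. The groups overlap in every panel; Penk and Tac1 spread most between mice, and the array sets of Sst do not overlap.

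Sst, Npy and Cck are the other precursors that mark interneuron classes. Sst encodes somatostatin, released by dendrite-targeting interneurons. Its lowest, median and highest log2 signals were 11.34, 11.57 and 11.85 in ISCL4 mice, against 11.19, 11.49 and 11.82 in littermates. The difference was 0.08 (SE 0.041; limma, adjusted p = 0.412), with 7 of 8 ISCL4 mice above the littermate mean of their set. With a 95% interval of 0.992 to 1.12-fold, Sst had the narrowest interval of the 10 genes.

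Npy encodes neuropeptide Y, which reduces glutamate release onto pyramidal cells. Its lowest, median and highest log2 signals were 10.24, 10.47 and 10.60 in ISCL4 mice, against 10.17, 10.39 and 10.69 in littermates. The range in littermates enclosed that in ISCL4 mice, and the difference was 0.04 (SE 0.070), or 1.03-fold with a 95% interval of 0.927 to 1.14. Cck encodes cholecystokinin, which is present in basket cells and also in pyramidal cells. Its log2 signals ran from 10.33 through a median of 10.59 to 10.81 in ISCL4 mice, against 10.37, 10.62 and 10.81 in littermates. The difference was -0.01 (SE 0.048), with a 95% interval of 0.925 to 1.07-fold.

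Markers of GABAergic neurons, the cells that express most of these precursors, were measured for 11 of 16 listed genes. Of these 7 had higher values in ISCL4 mice and 0 passed over all genes with limma, and 2 had an unadjusted p under 0.05, with a median difference of 0.02. Pvalb, which encodes the calcium buffer parvalbumin of fast-spiking interneurons, had 8.18 in ISCL4 mice and 7.99 in littermates on average (limma, adjusted p = 0.257). Lhx6, a transcription factor of interneurons from the medial ganglionic eminence, differed by 0.08, and Slc32a1, the vesicular GABA transporter, by 0.05. The mean log2 signal of the list ran from 8.61 to 8.77 in ISCL4 mice and from 8.58 to 8.73 in littermates. Markers of oligodendrocytes, the myelin-forming cells, had lower values in ISCL4 mice for 10 of 11, 8 of them with an unadjusted p under 0.05 and 0 passing with limma, and the mean log2 signal of the list ran from 9.16 to 9.75 in ISCL4 mice and from 9.47 to 9.96 in littermates. Mog, Aspa and Mal, with the smallest p of that list, differed by -0.37, -0.48 and -0.40 (limma, adjusted p = 0.0967, 0.0999 and 0.109). Their part in the differences of the precursors was not tested. In whole hippocampus, fewer cells of a type and less RNA per cell cannot be told apart.

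The opioid precursors differed in how much they varied. Penk encodes proenkephalin, the precursor of Met- and Leu-enkephalin. Its lowest, median and highest log2 signals were 10.03, 10.51 and 11.27 in ISCL4 mice, against 9.99, 10.91 and 11.79 in littermates. The lowest and the highest of all 16 mice were both littermates, and the ISCL4 range lay inside theirs. The difference was -0.26 (SE 0.213; limma, adjusted p = 0.611), with a 95% interval of 0.608 to 1.14-fold, so a change of this size was not resolved. Over mice of set A it was -0.49 and over mice of set B -0.04. It was -0.14 without FVB-like replicate 2, the mouse with the highest signal, and -0.37 without FVB-like replicate 6, the one with the lowest. Pdyn encodes prodynorphin, precursor of the dynorphins that act on kappa opioid receptors of the mossy fibre pathway. Its log2 signals ran from 6.79 through a median of 6.91 to 7.12 in ISCL4 mice, against 6.57, 6.99 and 7.07 in littermates. The difference was 0.01 (SE 0.069), or 1.01-fold with a 95% interval of 0.909 to 1.11, and 0.18 for the per-mouse median over its probe sets (limma, adjusted p = 0.602). The Pdyn probe set in the middle by mean signal, 5424497, differed by 0.22, and the others by -0.11 to 0.00.

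The tachykinin precursors are Tac1, which encodes substance P and neurokinin A, and Tac2, which encodes neurokinin B. The lowest, median and highest log2 signals of Tac1 were 7.55, 7.89 and 8.47 in ISCL4 mice, against 7.40, 8.22 and 8.97 in littermates. Again the ISCL4 range lay inside that of the littermates. The difference was -0.20 (SE 0.196; limma, adjusted p = 0.685), with a 95% interval of 0.651 to 1.16-fold. It was -0.09 without FVB-like replicate 2, the highest mouse, and -0.30 without FVB-like replicate 6, the lowest. Tac2 ran from 7.39 through 8.07 to 8.27 in ISCL4 mice, against 7.44, 7.81 and 8.31 in littermates. These values pool the array sets, which differed by -0.57 (set B minus set A), so the medians do not give the difference between the groups. That difference of Tac2 was 0.05 (SE 0.082), or 1.04-fold with a 95% interval of 0.920 to 1.17. It was 0.01 over mice of set A and 0.10 over mice of set B.

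Crh encodes corticotropin-releasing hormone, the stress peptide that hippocampal interneurons also make. Its lowest, median and highest log2 signals were 6.85, 7.14 and 7.61 in ISCL4 mice, against 6.88, 7.15 and 7.41 in littermates. The mean difference was 0.00 (SE 0.090), with a 95% interval of 0.877 to 1.14-fold. Over mice of set A it was 0.15 and over mice of set B -0.15, and an interaction of group with array set did not pass for Crh (limma interaction, adjusted p = 0.814) or for any other precursor. That test called 0.00597% of all gene-level features.

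**Figure D2:**
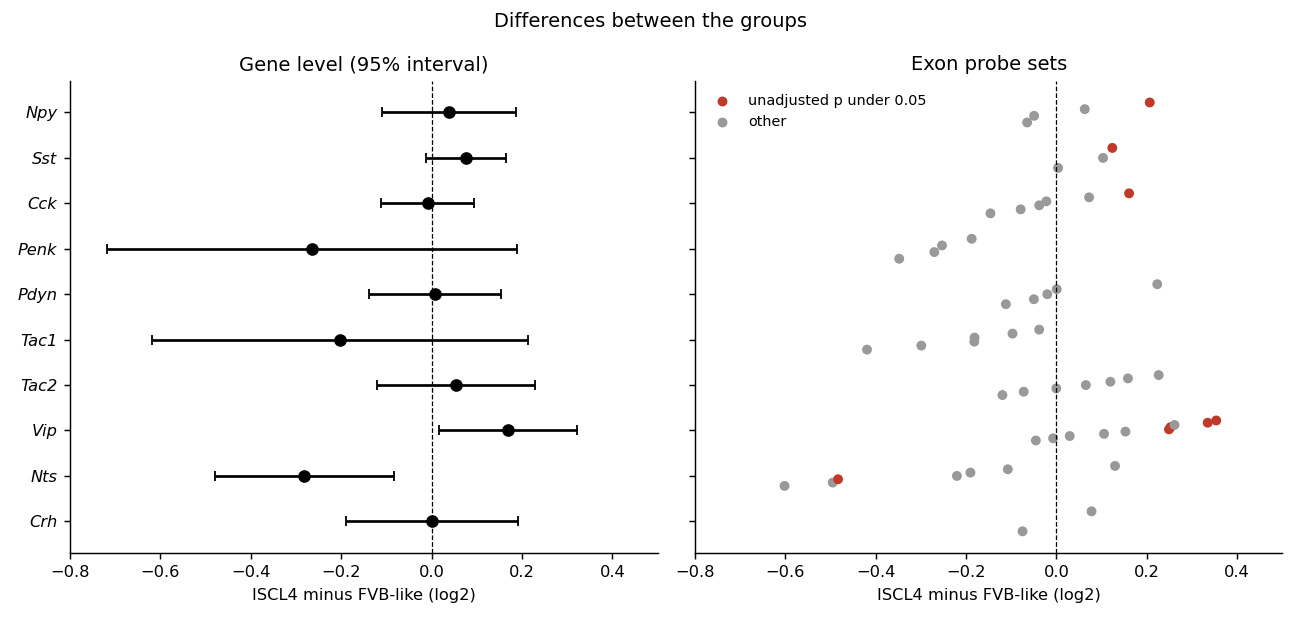
Log2 difference of ISCL4 mice from FVB-like littermates (x axis) for each precursor (y axis). Left, the gene-level difference with its 95% interval from the limma fit (n = 8 mice per group); only the intervals of Vip and Nts leave out 0, and neither passed after adjustment. Right, 1 point per exon probe set, red where the unadjusted p was under 0.05.

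At exon level, 0 of 54 probe sets of the precursors passed with limma, where 0.0249% of all probe sets did (0.0196% higher and 0.0053% lower in ISCL4 mice), and 8 had an unadjusted p under 0.05, where 10.2% of all probe sets did. Of the 54, 7 were higher in ISCL4 mice at that p, against 5.16% of all probe sets, and 1 was lower, against 5.07%. The groups overlapped at all 54, and at 0.0546% of all probe sets they did not. Values were higher in ISCL4 mice at 23 of the 54, against 51.1% of all probe sets. Vip had higher values at 8 of its 10 probe sets, with a median of 0.20. The 4 with an unadjusted p under 0.05 differed by 0.25, 0.35, 0.25 and 0.33, each with adjusted p of 0.404 or above. Nts had lower values at 6 of its 7 probe sets, from -0.60 to -0.11, and 0.13 at the other, while the difference of the per-mouse median over the 7 was 0.04. Probe set 4913011 of Nts had 5.22 ± 0.39 in ISCL4 mice and 5.70 ± 0.24 in littermates (SD, n = 8 each; limma, adjusted p = 0.313). That probe set was dim, at the 16.6th percentile of signal.

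At each of its 4 probe sets Penk had lower values in ISCL4 mice, from -0.35 to -0.19, and Tac1 at all 6, from -0.42 to -0.04, with no unadjusted p under 0.05. Probe sets of 1 gene read the same mice, so a shared sign is not independent evidence. In Sst, 3 of 3 probe sets had higher values, up to 0.12 at probe set 4951277 (adjusted p = 0.455). The probe sets of Npy, Cck, Pdyn, Tac2 and Crh had both signs, 2 of 4, 2 of 6, 2 of 5, 4 of 7 and 1 of 2 with higher values. The smallest p in Npy was at probe set 4556500, with 11.22 ± 0.17 in ISCL4 mice and 11.02 ± 0.17 in littermates (SD, n = 8 each; limma, adjusted p = 0.395), and in Cck at probe set 4714117, with a difference of 0.16 (adjusted p = 0.444).

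Array set moved several precursors more than the group did. In 4 of 10, Tac2, Sst, Crh and Cck, the sets differed with limma's adjusted p under 0.05, each lower in set B, where 46.4% of all features differed and 22.4% were lower in set B. Tac2 had 7.61 ± 0.20 in set B and 8.18 ± 0.12 in set A (SD, n = 8 each), a difference of -0.57 (SE 0.082) or 0.675-fold. Sst had 11.35 ± 0.08 in set B and 11.76 ± 0.08 in set A (SD, n = 8 each), and its sets did not overlap, as in 14.5% of all features. Crh differed by -0.33 and Cck by -0.25 between set B and set A, and their sets overlapped. At exon level the array sets differed at 19 of 54 probe sets, where 38.7% of all probe sets did. Of the 54, 16 differed and were lower in set B, against 18.9% of all probe sets. At 2 of the 54 the sets did not overlap, against 11.6% of all probe sets. Each set held 4 mice of each group, so these shifts do not enter the difference between the groups.

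**Figure D3:**
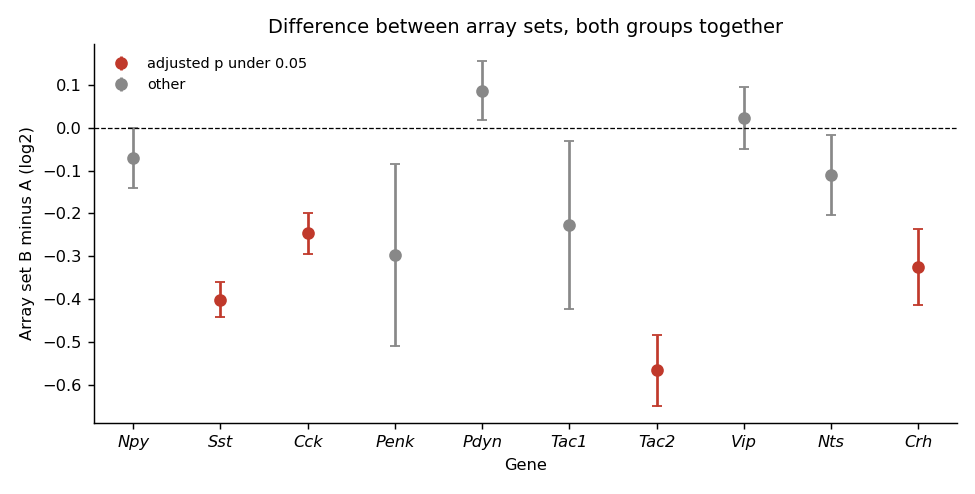
Difference between array set B and array set A in log2 signal (y axis) for each precursor (x axis), both groups together, with the standard error of the limma fit (n = 8 mice per set); red marks an adjusted p under 0.05. The 4 red genes, Sst, Cck, Tac2 and Crh, all lie below 0, Tac2 lowest at -0.57.

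Penk and Tac1 had the widest spread from mouse to mouse. Within group and array set, the SD was 0.466 for Penk and 0.434 for Tac1 on the log2 scale, at the 97.4th and 96.7th percentile of all features, against 0.079 to 0.205 for the other precursors and a median of 0.125 over all features. The highest signal of both was in FVB-like replicate 2, at 11.79 for Penk and 8.97 for Tac1. The lowest of both was in FVB-like replicate 6, at 9.99 and 7.40.

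The 2 genes also varied together. Of the 45 pairs of precursors, 1 passed after adjustment: Penk and Tac1, on different chromosomes, correlated over 16 mice with Pearson's r = 0.95 and Spearman's rho = 0.959, computed on deviations from the mean of each group and array set (permutation p = 4e-05 and 1e-04 with 100000 resamples within group and array set, adjusted p = 0.0018 and 0.0045 over 45 pairs). Without the 2 mice farthest from the median, FVB-like replicate 2 and ISCL4 replicate 1, r was 0.925. Over mice of set A, r was 0.986 and over those of set B 0.935 (n = 8 each). Over all 40320 orders of the 8 deviations, permutation p was 0.000149 and 0.00258. These orders exchange mice between groups, while the deviations were centred within groups, so these p values are approximate. All 24 pairs of a Penk and a Tac1 exon probe set correlated at over 0.5, with r from 0.551 to 0.955 and a median of 0.895. Among 14996 gene-level features with 1 symbol, Tac1 was the feature most like Penk by this r, and Penk the one most like Tac1, which is a description over 16 mice.

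**Figure D4:**
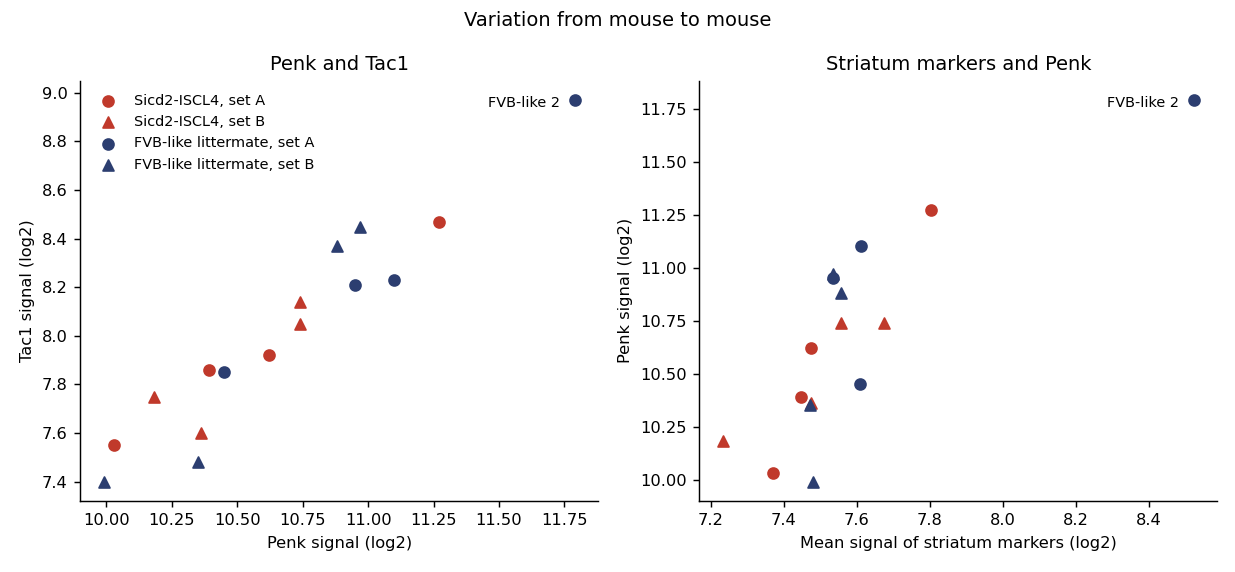
Left, log2 signal of Tac1 (y axis) against Penk (x axis) in 16 mice; right, log2 signal of Penk (y axis) against the mean log2 signal of the 8 measured striatum markers (x axis). Red, Sicd2-ISCL4; blue, FVB-like littermates; circles, array set A; triangles, array set B. Penk and Tac1 vary together in both groups, and FVB-like replicate 2 is highest on all axes.

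Markers of striatum moved with both genes. Of 14 listed markers 8 were measured, Drd1, Drd2, Rgs9, Pde10a, Ppp1r1b, Gpr6, Ido1 and Scn4b, which include receptors and signalling proteins of striatal projection neurons. The mean log2 signal of the list ran from 7.23 to 7.80 in ISCL4 mice and from 7.47 to 8.52 in littermates, highest in FVB-like replicate 2, with every other littermate at 7.61 or below. For 8 of 8 the value was lower in ISCL4 mice (median difference -0.16), and 0 passed with limma, none with an unadjusted p under 0.05. Rgs9, a regulator of dopamine receptor signalling, ran from 6.93 to 7.60 in ISCL4 mice and from 7.14 to 8.56 in littermates. On deviations from group and set means, the list correlated over 16 mice with Penk at r = 0.758 and rho = 0.735, and with Tac1 at r = 0.701 and rho = 0.665 (permutation adjusted p = 0.0418 for both r, and 0.0302 and 0.0328 for rho, over 110 relations of 11 lists with 10 precursors). Without the 2 mice farthest from the median of the list, r was 0.592 with Penk and 0.504 with Tac1. Over mice of set A it was 0.826 for Penk and 0.889 for Tac1. Over those of set B it was 0.629 and 0.467, and neither passed alone (permutation p = 0.0821 and 0.259, n = 8, approximate as above). Pdyn, also abundant in striatum, did not pass with the list, at r = 0.497 and rho = 0.341 (permutation adjusted p = 0.724 and 0.681). Its r was 0.642 in set A, -0.248 in set B and 0.053 without the 2 mice farthest from the list median. Without FVB-like replicate 2, Penk and Tac1 still correlated at 0.933. That mouse was also the highest of the 16 in the lists of thalamus and hypothalamus markers, at 7.68, and of oligodendrocyte markers, at 9.96. In choroid plexus markers it had 8.49, below ISCL4 replicate 1 at 8.86. The part of the striatal signal in the covariation of Penk and Tac1 was not tested.

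Another 3 of the 110 relations passed. Tac2 went with the mean of the receptor list at r = 0.764 and rho = 0.797 and against the peptidase list at r = -0.738 and rho = -0.785, over 16 mice (permutation adjusted p = 0.0418 and 0.0429 for r, 0.0302 and 0.0328 for rho). Within array set A neither passed, at 0.552 and -0.578 (permutation p = 0.156 and 0.130, n = 8, approximate as above). In set B they were 0.916 and -0.851. Without the 2 mice farthest from the median of the list they were 0.716 and -0.692. Vip went against the mean of the other precursors at r = -0.825 and rho = -0.826 (permutation adjusted p = 0.0429 and 0.0328), and at -0.844 without the 2 mice farthest from the median. It held at -0.906 over mice of set A and at -0.739 over those of set B, and 16 of the 36 features behind that mean were below the 25th percentile of signal.

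Other pairs of precursors were less alike over the 16 mice. The next highest rho were those of Sst with Tac1 (r = 0.514, rho = 0.688) and Sst with Penk (r = 0.472, rho = 0.618). Neither passed (permutation adjusted p = 0.449 and 0.463 for r, 0.423 for both rho). Some pairs were unlike in the array sets. Sst with Penk had r = 0.149 over mice of set A and 0.977 over those of set B, and Vip with Nts -0.209 and 0.940. Npy with Sst had r = 0.538 and rho = 0.506, and Npy with Tac2 r = 0.530 and rho = 0.600, neither past the threshold (permutation adjusted p = 0.449 for both r, n = 16 mice, 45 pairs). Penk and Pdyn, both opioid precursors, had r = 0.557 and rho = 0.376, with r = 0.891 over mice of set A and r = -0.353 over those of set B (permutation adjusted p = 0.449 for r). The features most like the others were Gad2, which encodes a GABA-synthesising enzyme, for Pdyn (r = 0.886, rho = 0.815), Psmd4 for Npy, Lnx1 for Sst, Htt for Cck, Otub1 for Tac2, Fam126a for Vip, Frg2f1 for Nts and Tmprss11b for Crh. Their r lay between 0.840 and 0.913 over 16 mice, as the highest of 14996 features, so no p is given. Second came Rsrc2 for Tac1 at r = 0.925 and Klhdc1 for Penk at r = 0.863.

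**Figure D5:**
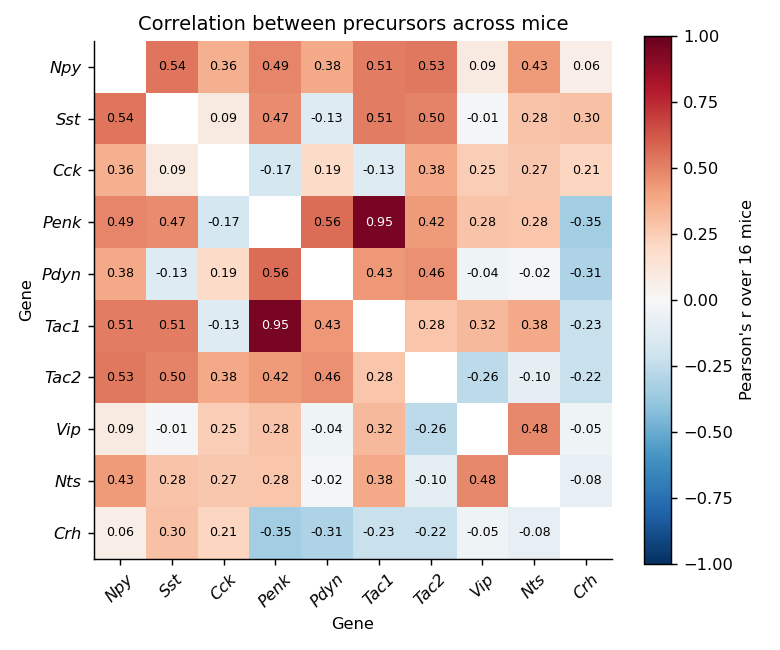
Pearson's r between the 10 precursors (both axes) over 16 mice, on deviations from the mean of each group and array set; colour and printed number give r. Penk with Tac1 stands at 0.95, and no other pair exceeds 0.56.

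Of 20 activity-regulated genes listed, 18 were measured, and each of the 18 was higher in value in ISCL4 mice (median difference 0.26). With limma 6 passed, Nr4a1, Arc, Egr2, Ptgs2, Inhba and Nr4a3, all higher, where 0.167% of all features passed as higher. The list was chosen with earlier results of these data known, so these counts describe it and are not independent evidence. Nr4a1 and Arc lie on chromosome 15, as Sicd2 does, while Egr2, Ptgs2, Inhba and Nr4a3 lie on chromosomes 10, 1, 13 and 4. Whether the donor segment covers Nr4a1 or Arc was not tested. With the replicate number as a block, 2 of the 6 passed, Nr4a1 (limma, adjusted p = 0.0160) and Egr2 (limma, adjusted p = 0.0371). The count was 3 without FVB-like replicate 2, without ISCL4 replicate 6 or without ISCL4 replicate 8, and 0 within either array set. Of the 5 precursors with a core match upstream, printed above, Sst and Vip had higher values in ISCL4 mice and Cck, Tac1 and Nts lower ones, and none of the differences passed.

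Receptors and binding proteins of the peptides were measured for 24 of 27 listed genes. With limma 0 passed and 1 had an unadjusted p under 0.05, with 14 higher and 10 lower values in ISCL4 mice and a median of 0.02. That gene was Crhbp, which encodes a secreted protein that binds corticotropin-releasing hormone and is made by somatostatin neurons among others. Crhbp ran from 9.08 to 9.32 in ISCL4 mice and from 8.91 to 9.16 in littermates. Its difference was 0.23 (SE 0.047), or 1.18-fold, at an adjusted p of 0.0528 (limma), just outside the threshold. It passed under quantile normalization, without the dimmest features and with a trended variance, so its call turns on the processing. Oprd1, the delta opioid receptor to which enkephalins bind, differed by 0.09 (adjusted p = 0.417). Oprk1, the kappa receptor for dynorphins, differed by -0.28 (adjusted p = 0.421) and was dim, with 5.44 in ISCL4 mice and 5.72 in littermates.

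Genes that process peptides and fill dense-core granules were measured for 16 of 19 listed genes. With limma 0 passed, and 6 had an unadjusted p under 0.05, 3 higher and 3 lower, with a median of -0.01. Scg5, the 7B2 chaperone of the convertase PC2, had 10.24 in ISCL4 mice and 10.43 in littermates on average, a difference of -0.19 (SE 0.047; adjusted p = 0.106). Pcsk1, the prohormone convertase PC1/3, differed by 0.16 (adjusted p = 0.174) and Furin, a convertase of the secretory pathway, by 0.11 (adjusted p = 0.214).

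Peptidases that degrade neuropeptides were measured for 10 of 13 listed genes by 11 features, of which 0 passed with limma and 4 had an unadjusted p under 0.05, 2 higher and 2 lower. Thop1, thimet oligopeptidase, which cleaves neurotensin and other short peptides, differed by 0.14 (SE 0.030; adjusted p = 0.0750). Nln, neurolysin, which cleaves neurotensin too, differed by -0.13 (adjusted p = 0.168), and Tpp2, tripeptidyl peptidase II, by -0.15 (adjusted p = 0.185).

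Precursors outside the 10 were measured for 36 of 41 listed genes. With limma 0 passed, and 6 had an unadjusted p under 0.05, 2 higher and 4 lower, with a median of -0.02. Adm, which encodes the vasodilator adrenomedullin, differed by 0.55 (SE 0.148; adjusted p = 0.123), Ucn3, a relative of Crh, by -0.54 (adjusted p = 0.190) and Sct, which encodes secretin, by -0.23 (adjusted p = 0.138). Adm and Ucn3 were dim, at the 16.2th and 17.3th percentile of signal. In the lists of receptors, processing genes, peptidases and other precursors together, 0 features passed, as among the 10 precursors.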

How the data were processed

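The authors deposited log2 signal values for 16 exon arrays, per gene (16755 features) and per exon probe set (188590). Tools named per the submitters' processing notes are RMA and Partek 6.6, beside build mm9. What each did is not given in the sources used here. Depth does not apply to arrays, where the number of arrays limits precision (median SE of a gene-level difference, 0.062). Symbols came from the platform annotation, updated through RefSeq (GRCm38.p6), which gave no coordinates for the features. At gene level 14996 features carried 1 symbol, 1019 carried several and 740 had none, and for probe sets these were 179269, 1325 and 7996. Penk is listed under an older name at exon level.

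The values were fitted with limma 3.58.1 (lmFit, eBayes; R 4.3.3, statmod 1.5.0) over all features of a level, with group and array set, and adjusted p values are limma's (Benjamini-Hochberg, threshold 0.05). Permutation tests used scipy 1.17.1 and numpy 2.4.6. The labels do not say whether replicate numbers pair mice, and the values do not settle it. The main fit had no block for them. In deviations from group and set means, same-numbered pairs correlated at -0.05 to 0.25, and 6 of 8 were over 0.1 (8 of 8 from group means alone). In 4 of 8 the same-numbered mouse was the best match. Named genes of other lists were those that passed and the 3 with the smallest p. Slc17a7, Wfs1, Prox1 and Iyd were named outside that rule to check the tissue, and the striatum list is named whole. For choroid plexus, and thalamus and hypothalamus, only list values are given. For markers of oligodendrocytes, choroid plexus, and thalamus and hypothalamus, limma called 0 of 11, 0 of 9 and 0 of 9 features, with medians of -0.25, -0.18 and 0.02. The members and lists were chosen with earlier results of these data known. On simulated arrays with known changes, the gene-level fit over 16755 features recovered 52% of 50 features changed 1.2-fold and 82% of 50 changed 1.5-fold, with 9 false calls. The exon-level fit over 188590 probe sets recovered 0% and 44%, with 6 false calls.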

Additional observations from a re-analysis of the deposited data

Results flagged for a closer look

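In FVB-like replicate 3, the lowest of 8 littermates, Pdyn had a log2 signal of 6.57, and the gap to the next mouse was 0.611 of the range of the group, above Dixon's 95% critical value of 0.526 for 8 mice. It was the only one of 20 groups checked, 10 precursors in each of the 2 groups of mice, and chance flags about 1 in 20. Without that mouse the difference of Pdyn was -0.04, against 0.01 with it.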

How the results depend on the processing

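No precursor and none of its probe sets passed under any of the alternatives run, while the number of all features called ran from 0 to 102 at gene level (49 as reported) and from 1 to 273 at exon level (47 as reported). With the replicate number as a block, 0 gene-level precursors and 0 probe sets passed, and among all features the calls numbered 18 at gene level and 30 at exon level. Of the genes named here it changed the calls of Arc, Ptgs2, Inhba and Nr4a3, which no longer passed, leaving 2 in the activity-regulated list, and no other. The differences of Npy, Sst, Penk, Tac1 and Vip kept their sign under all 27 alternatives, from 0.00 to 0.08, 0.06 to 0.11, -0.49 to -0.04, -0.36 to -0.04 and 0.09 to 0.23. Nts was between -0.33 and -0.23 with each mouse left out, but 0.040 when each mouse's median over its probe sets was taken. Oprk1, at -0.28 as reported, was 0.12 in array set B. Cck was 0.023 under quantile normalization, 0.042 in array set A and 0.0073 as the median of its probe sets. Pdyn was -0.038 in array set B and -0.021 without FVB-like replicates 2 and 3, and 0.18 as the median of its probe sets. Tac2 was -0.0039 as the median of its probe sets and Crh -0.15 in array set B. With each mouse left out, Cck ran from -0.026 to 0.020, Pdyn from -0.042 to 0.035, Tac2 from -0.0090 to 0.092 and Crh from -0.065 to 0.029. The cause of these reversals was not tested. For list counts, computed under alternatives chosen after seeing the data, receptors gave 1 call under quantile normalization, without the dimmest features and with a trended, robust variance, and 0 to 1 with each mouse left out. That call was Crhbp, which also passed without FVB-like replicate 1, FVB-like replicate 5 or ISCL4 replicate 1. Peptidases gave 1 without the dimmest features (Thop1), and other precursors 0 to 1 with each mouse left out (Sct, without FVB-like replicate 2). Activity-regulated genes gave 0 with no term for array set, 2 with array set as a random block, 0 in either array set alone, 0 without FVB-like replicates 2 and 3, and 3 to 6 with each mouse left out. At gene level the correlation of Penk and Tac1 stayed between 0.925 and 0.986 over all mice and the subsets of mice run. Between their exon probe sets r ran from 0.551 to 0.955.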
